A study of Mus musculus with 4 samples.

Results

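After 6 days of culture, 724 of 2487 Epcam-positive cells of urogenital sinus (UGS) explants carried high levels of the basal keratins Krt5 and Krt14, and these 724 cells are described here. They made up 29.1% of the day 6 Epcam-positive cells (95% Clopper-Pearson interval 27.3% to 30.9%), out of 7474 cells in the explant library and 19148 cells in the 4 libraries of the study. The cells were selected on their own UMIs, the unique molecular identifiers that each stand for 1 captured transcript. A selected cell had at least 1 UMI of Epcam, under 2 UMIs of Pax2, at least 25 UMIs of Krt5 and Krt14 together per 10,000 UMIs, under 3 UMIs of Vcan and under 5 UMIs of Krt4 and Psca together. The other 1763 day 6 cells that met the Epcam and Pax2 limits served as the comparison. Because the cells were chosen by these genes in the same library, all differences below are descriptions with no test.

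The UGS is the embryonic tissue from which the prostate buds. UGS were dissected from embryos of ICR (CD-1) mice at E15.5 and grown on filters with insulin, transferrin, selenite and 10 μM dihydrotestosterone, the androgen that drives budding, and cells were collected on days 0, 1, 3 and 6. The middle of the explants of 1 day was dissected and pooled, live EPCAM+ cells were sorted, and all 4 days entered 1 droplet library (10x Genomics 3′ v3), so each day is 1 pool without a replicate. Explants of both sexes were in the day 6 pool, since cells held UMIs of either Xist or Y-linked genes. Intact prostate lobes of adult P2-Runx1:RFP mice over 8 weeks old, on the same ICR (CD-1) background, were sorted lobe by lobe into RFP+ and RFP- fractions of EPCAM+ cells, spread over 3 further libraries, and are used for 1 comparison below. Runs 1 and 2 also held cells of castrated mice, which were not used here. In that line the proximal P2 promoter of Runx1 drives RFP, and the lobes of several mice were pooled in each run.

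The day of each cell rests on the MULTI-seq barcode, a lipid-tagged oligonucleotide that labelled 1 pool before mixing. These 4 barcodes are shown because every comparison by day depends on telling them apart, and the capitals mark the whole barcode.
Day 0: TTAGCCAG
Day 1: GGACCCCA
Day 3: CCAACCGG
Day 6: TGACCGAT
A cell was given the day whose barcode count, divided by the median of that barcode over the library, was at least 3 and at least 2 times the next ratio. The medians were 10 counts for day 0, 16 for day 1, 30 for day 3 and 148 for day 6. Of 6614 cells with over 1000 genes and under 7.5% mitochondrial UMIs, 902 were assigned to day 0, 985 to day 1, 1086 to day 3, 2568 to day 6 and 1073 to no day.

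Basal cells of stratified and prostate epithelium sit on the basement membrane, which they hold through hemidesmosomes. They are known for the keratin pair KRT5 and KRT14, KRT15 and the transcription factor p63, while luminal cells above them carry KRT8 and KRT18. In the embryonic UGS many epithelial cells express basal and luminal keratins together, and prostatic buds grow out of this layer under androgen.

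The selected cells were shallower than the cells around them. Their median was 11216.5 UMIs and 3009.5 genes per cell, against 14544 UMIs and 3544 genes in the other day 6 cells. The median share of mitochondrial UMIs was 2.74% and 3.44%. The limits on Vcan, Krt4 and Psca are per cell, so a shallow cell met them more readily, and the part of depth in the selection was not tested beyond the alternative limits given in the closing section. The sums over cells held 9007075 UMIs for the selected and 28613233 for the other cells.

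The other 1763 cells were of 3 kinds. The largest held 1040 cells with 3 or more UMIs of Vcan, a proteoglycan of the extracellular matrix, and under 5 UMIs of Krt4 and Psca. The paper counts Vcan, like Trp63, among basal markers that were higher in its explant clusters C5 and C6. A further 114 cells had 5 or more UMIs of Krt4 and Psca, genes of proximal luminal and urothelial cells. The remaining 609 cells met both limits but had under 25 UMIs of Krt5 and Krt14 per 10,000. Of 1046 cells at or over 25, 268 were left out for Vcan and 56 for Krt4 and Psca, among them 2 for both. Just inside the threshold, 38 selected cells had 25 to 27.5 UMIs per 10,000, and just outside, 29 cells that met both other limits had 22.5 to 25.

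Krt5 and Krt14, which defined the cells, were carried by almost all of them. The median selected cell had 28.0 UMIs of Krt5 per 10,000 (quartiles 18.7 and 40.9) and 30.9 of Krt14 (quartiles 18.5 and 53.7). The sum of both ran from 25 to 362 with a median of 59.4, against a median of 10.5 in the other day 6 cells. No Krt14 UMI was found in 18 selected cells and no Krt5 UMI in 3. In CPM, the summed UMIs of a gene per 1,000,000 UMIs of its group, Krt5 (chromosome 15, 101707070 to 101712898, minus strand, GRCm38) stood at 3080 in the selected and 718 in the other cells, and Krt14 (chromosome 11, 100203162 to 100207548, minus strand) at 3744 and 810.

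**Figure D1:**
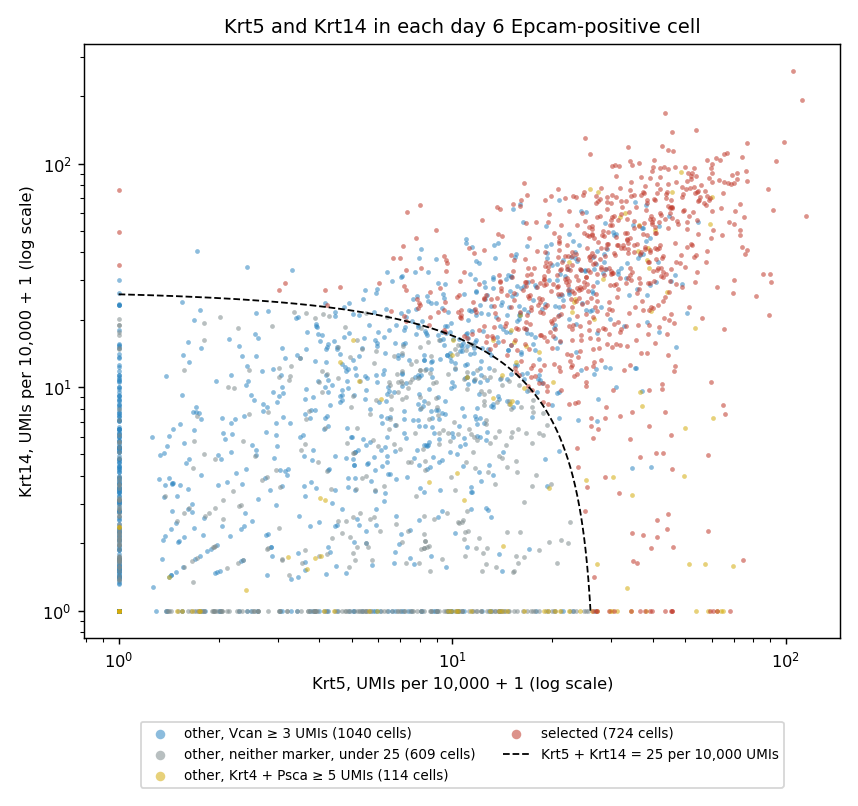
Krt5 (x axis) and Krt14 (y axis) in UMIs per 10,000 plus 1, both on log scales, with 1 point per day 6 Epcam-positive cell and colours for the 4 kinds of cell. The 724 selected cells lie above the dashed line at 25, where 268 cells with Vcan and 56 with Krt4 and Psca also lie, so the selected cells are one end of a continuous spread.

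The basal label was borne out by part of its markers. Krt15, a keratin of basal and stem-like cells (chromosome 11, 100131758 to 100135928, minus strand), stood at 8802 CPM in the selected cells (95% exact Poisson interval 8741 to 8863, counting error only, as for all intervals here) and at 3470 CPM in the other cells (3449 to 3492). Col17a1, the hemidesmosomal collagen, was at 98.5 CPM (92.1 to 105) against 32.5 (30.4 to 34.7), and Itgb4, its integrin partner, at 111 (104 to 118) against 51.5 (49.0 to 54.2). Trp63, which encodes p63, was nearly level at 145 CPM (137 to 153) and 127 CPM (123 to 131). Itga6, the partner of Itgb4, was lower in the selected cells, at 164 against 221 CPM. The selected cells are therefore called Krt5/Krt14-high below, a range of keratin level and not a separate type.

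When each cell was thinned to 5000 UMIs, which left out 5 selected and 11 other cells, the shares of cells with a UMI of Krt15 and Col17a1 stood in the same order. Krt15 was found in 98.5% of the selected cells (97.3% to 99.2%) and in 89.2% of the others (87.7% to 90.6%). Col17a1 was found in 36.2% (32.6% to 39.8%) and 13.98% (12.4% to 15.7%). Trp63 was found in 46.2% (42.5% to 49.9%) and 44.9% (42.5% to 47.2%), so its shares could not be separated at this depth. Without thinning, Trp63 was found in 69.5% and 74.1% and Col17a1 in 62.0% and 34.3%. In 16 mesenchyme-like day 6 cells with no Epcam UMI, which should lack these genes, Krt15 was found in 2, and Trp63 and Col17a1 in 0, which allows a share of up to 18.8%. The median depth of all 17 such cells, before thinning, was 7791 UMIs. Luminal keratins were present as well, with Krt8 in 81.8% and Krt18 in 75.8% of the thinned selected cells, against 84.2% and 70.2% of the others. For Krt18 the share and the summed level stood in opposite order, so no order is read from it.

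Across 7801 genes with at least 10 CPM in 1 of both groups and at least 50 UMIs in all, 151 genes were at least 2-fold higher in the Krt5/Krt14-high cells, or 1.94%, and 136 were at least 2-fold lower, or 1.74%. These ratios are on the log2(CPM + 1) scale, which understates the difference of low genes. The median log2 ratio over all 7801 genes was -0.06, and 3187 of them lay above 0. Against only the 609 cells with neither marker, 138 of 7856 genes (1.76%) were at least 2-fold higher and 196 (2.49%) lower.

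Outside the genes of the rule, the 12 highest ratios among genes of 50 CPM or more were led by Cdh13, which encodes T-cadherin, a cadherin anchored to the membrane by lipid, at 60.1 against 10.9 CPM, a log2 ratio of 2.36. BC100530, a gene of the stefin family of cysteine protease inhibitors, was at 164 against 33.2 CPM, and because its close paralogs share sequence its counts are less certain. Upk3bl followed at 82.8 against 19.0 CPM, Dapl1, a gene of early epithelial differentiation, at 328 against 96.6, and Gsn, which encodes the actin-severing protein gelsolin, at 146 against 44.6. Lor, Anxa8, Dlk2, Ndufa4l2, Ckmt1 and Igfbp2 were also among the 12, with log2 ratios of 1.65 to 1.67. Among them Dlk2 is a membrane protein of the Delta-like family, Igfbp2 binds insulin-like growth factors and Ckmt1 is a mitochondrial creatine kinase.

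The 12 lowest ratios held a Wnt antagonist, a claudin, an uroplakin and a cyclin. Wif1, which encodes a secreted Wnt inhibitor, stood at 12.9 CPM against 96.2 CPM, with a log2 ratio of -2.81. Cldn3, a claudin of tight junctions, was at 9.66 against 67.4 CPM, and Upk3a, an uroplakin of urothelium, at 21.1 against 135. Etv4, a transcription factor downstream of FGF signalling, was at 28.1 against 124 CPM. Ccnd1, cyclin D1, was at 144 against 427 CPM, and the chemokine gene Cxcl12 at 17.8 against 56.3. Crip1, Basp1, Capn6, Col9a3, Gpx2 and Bex1 lay between them, with log2 ratios from -2.09 to -1.62.

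The 3 kinds of other cell did not stand alike toward the Krt5/Krt14-high cells. Of 36 listed or leading genes that were at least 2-fold higher in the Krt5/Krt14-high cells than in all other cells, 35 were also 2-fold higher than in the Vcan cells and 24 than in the cells with neither marker. Against the 114 Krt4 and Psca cells only 7 of the 36 were 2-fold higher, and 18 were as high or higher in the Krt4 and Psca cells. These 18 were BC100530, Upk3bl, Gsn, Lor, Anxa8, Ckmt1, Krt15, Sfn, Aqp3, Krtdap, Dmkn, Ly6a, Wnt4, Hbegf, Slc2a1, Ndrg1, Hspa1a and Col3a1. BC100530 stood at 292 CPM in the Krt4 and Psca cells, 164 in the Krt5/Krt14-high cells, 17.4 in the Vcan cells and 3.83 in the cells with neither. The Krt4 and Psca cells were thus highest for this gene. Upk3bl was also highest there, with 122 CPM in the Krt4 and Psca cells, 82.8 in the Krt5/Krt14-high cells, 21.3 in the cells with neither and 5.92 in the Vcan cells. Krt15 was highest in the Krt4 and Psca cells too, at 11124 CPM. The 7 genes 2-fold above the Krt4 and Psca cells were Cdh13, Dlk2, Igfbp2, Itgb4, Col17a1, Sfrp1 and Nrg1. In those cells Col17a1 was at 43.8 CPM, Cdh13 at 27.4, Dlk2 at 24.6 and Igfbp2 at 94.4. Of the 114 Krt4 and Psca cells, 21 held UMIs of both Xist and a Y-linked gene. The same was true of 42 of the 724 Krt5/Krt14-high cells, 66 of the 1040 Vcan cells and 22 of the 609 with neither. The part of doublets in the levels of the Krt4 and Psca cells was not tested. Against the cells with neither marker, 12 of the 36 genes were higher by under 2-fold (Itgb4, Sfn, Aqp3, Krt75, Fos, Atf3, Hspa1a, Klf4, Slc2a1, Vegfa, Ndrg1 and Sfrp1).

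**Figure D2:**
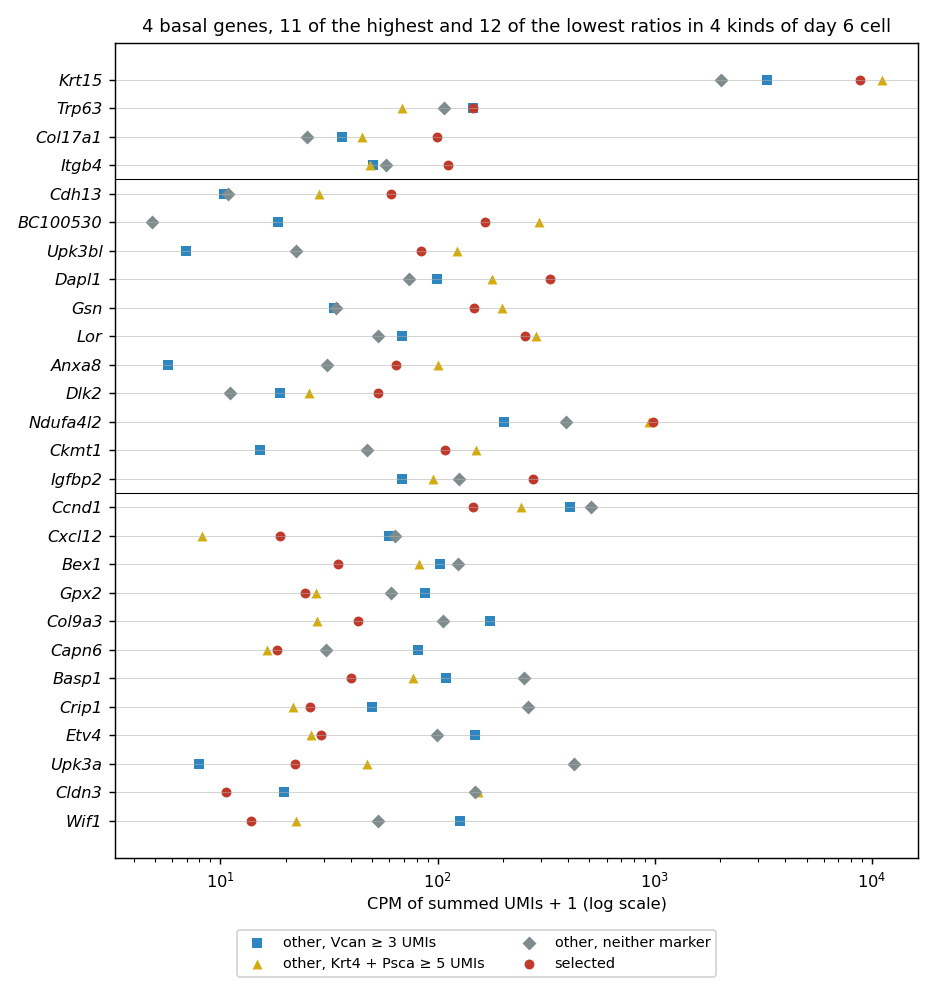
CPM of summed UMIs plus 1 (log scale, x axis) for 4 basal genes, 11 of the 12 highest and the 12 lowest log2 ratios (y axis) in the 724 Krt5/Krt14-high cells, 1040 Vcan cells, 114 Krt4 and Psca cells and 609 cells with neither. For BC100530, Upk3bl, Gsn, Lor, Anxa8 and Ckmt1 the Krt4 and Psca cells lie at or above the Krt5/Krt14-high cells, and for Cdh13, Col17a1, Dlk2 and Igfbp2 they lie below.

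For every list count below, the shares over all genes were 1.94% 2-fold higher and 1.74% 2-fold lower, with 3187 of 7801 above 0. Of 16 basal markers tested, 4 were at least 2-fold higher (Krt15, Itgb4, Col17a1 and Igfbp2), 0 were 2-fold lower, and the median log2 ratio was 0.85 against -0.06 over all genes. Of the 16, 13 lay above 0 and 3 below. Igfbp2 stood at 2126 CPM in the mesenchyme-like cells and was found in all 16 thinned ones. The part of RNA carried over from such cells in its level was not tested. The laminin chain genes Lama3 and Lamb3 had log2 ratios of 0.79 and 0.82. Krt17 was at 758 against 437 CPM. In the list of hemidesmosome and integrin genes, 2 of 9 were 2-fold higher and the median was 0.34.

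Of 13 tested basement membrane genes, 0 were 2-fold higher and 1 was 2-fold lower, with a median log2 ratio of 0.45. Col4a1, which encodes the most widespread collagen IV chain, was at 135 against 351 CPM (log2 ratio -1.37), and Col4a2 at 80.6 against 155 CPM. Col4a5 and Col4a6, chains of another collagen IV trimer, stood at 89.9 against 54.7 and 41.3 against 21.5 CPM. Col7a1, the collagen of anchoring fibrils, was at 105 against 59.9 CPM. Of these 5 genes only Col4a1 was past 2-fold. Col4a1 was highest in the Vcan cells, at 450 CPM, followed by the cells with neither at 211 CPM and the Krt4 and Psca cells at 78.5 CPM.

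Genes of stratified epithelium lay mostly above 0. Of 13 tested desmosome and stratification genes, 2 were 2-fold higher and the median log2 ratio was 0.62. Sfn, which encodes 14-3-3 sigma, was at 1316 against 582 CPM, and Aqp3, an aquaporin of basal keratinocytes, at 71.6 against 28.8 CPM. Both genes were as high or higher in the Krt4 and Psca cells. Dsp, which encodes desmoplakin, was at 335 against 173 CPM. Of 13 tested squamous differentiation genes, 5 were 2-fold higher (Lor, Anxa8, Krtdap, Dmkn and Krt75), 0 lower, and 13 lay above 0, with a median of 0.59. Over all genes 1.94% were 2-fold higher and 3187 of 7801 lay above 0. Krtdap, a small secreted protein of differentiating keratinocytes, was low in both groups, at 23.7 against 3.63 CPM. The suprabasal keratins Krt1 and Krt10 had log2 ratios of 0.25 and 0.04, and the cells with most Krt1 and Krt6a were the Krt4 and Psca cells, at 160 and 570 CPM.

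Lor, which encodes loricrin, a protein of the cornified envelope, stood at 253 CPM in the Krt5/Krt14-high cells (243 to 263) and 78.8 CPM in the other cells (75.6 to 82.1). A Lor UMI was found in 48.5% and 24.3% of the thinned cells, and in 2 of 16 mesenchyme-like cells (12.5%, interval 1.55% to 38.3%), which should lack it. Its promoter is shown because Lor was among the 12 highest genes. Of the promoters of those genes it alone held both motifs given below, so it is not typical of them. Immediate early genes of the AP-1 family were higher in the same cells, but any link between them and Lor was not tested. The 120 bases before its RefSeq start, on the minus strand of chr3:92083143-92083262 (GRCm38.p6), read as follows, with matches to TATAAA and to TGANTCA, the AP-1 motif, in capitals.
Lor: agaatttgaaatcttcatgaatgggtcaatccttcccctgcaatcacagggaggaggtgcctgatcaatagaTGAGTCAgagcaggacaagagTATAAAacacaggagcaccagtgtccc
TATAAA begins 27 bases and TGANTCA 48 bases before the start. Within 250 bases before the start, on either strand, TATAAA was present in 12.4% and TGANTCA in 6.75% of all 32851 RefSeq promoters. Of 13 promoters of the 12 highest genes, 3 held TATAAA and 2 held TGANTCA, and of 9 promoters of the 12 lowest genes 1 held each. The letters do not overlap in Lor, and a match is no evidence of binding.

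Immediate early and glycolytic genes also lay above 0 with 1 exception, Ier3. Of 16 immediate early and stress genes, 5 were 2-fold higher (Fos, Atf3, Dusp1, Hspa1a and Klf4) and 15 lay above 0, with a median log2 ratio of 0.89. Fos was at 2837 against 1350 CPM and Atf3 at 2615 against 1243 CPM. Genes of this list are also known to respond to tissue dissociation, whose part in these levels was not tested. Of 16 hypoxia and glycolysis genes, 3 were 2-fold higher and 16 lay above 0, with a median of 0.69, beside 1.94% higher and 3187 of 7801 above 0 over all genes. Slc2a1, the glucose transporter GLUT1, was at 255 against 104 CPM, Vegfa at 174 against 73.5 and Ndrg1 at 146 against 53.8. The first carries glucose into the cell and Vegfa drives vessel growth. Slc2a1, Ndrg1 and Hspa1a were as high or higher in the Krt4 and Psca cells. Ndufa4l2, a mitochondrial protein known to respond to low oxygen, was at 980 against 311 CPM. Against the cells with neither marker the medians of both lists were 0.53 and 0.37.

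Luminal markers stood on both sides of 0. Of 16 tested, 1 was 2-fold higher and 3 were 2-fold lower, with a median log2 ratio of -0.20. Ly6a, which encodes SCA-1, was at 360 against 134 CPM, and was as high or higher in the Krt4 and Psca cells. Cldn3, Nupr1 and Clu were the 3 lower genes, and Clu, which encodes clusterin, stood at 33.9 against 68.9 CPM, which was under 2-fold in 8 of 18 alternative settings. Krt8 was at 610 against 731 CPM and Krt18 at 582 against 594, but both lay lower against the cells with neither marker, which held 1176 and 1134 CPM. The uroplakin gene Upk3a was 424 CPM in the cells with neither and 6.98 in the Vcan cells.

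Among genes that regulate the prostate bud, of 19 tested, 0 were 2-fold higher and 4 were 2-fold lower, among them Foxa2, Bmp7 and Etv4. Foxa2, a forkhead transcription factor, was at 2.33 against 13.5 CPM. Vcan cells, which the rule keeps out of the selected cells, made up 1040 of the 1763 other cells. The list median was -0.30 against all other cells, with 6 genes above 0 and 13 below. Against the cells with neither marker the list median was 0.23, so the list as a whole was not lower there. The log2 ratios of 3 single genes against those cells were -1.17 for Foxa2, -0.85 for Bmp7 and -1.78 for Etv4. Shh, the ligand made by UGS epithelium, was at 51.0 against 46.2 CPM. Runx1 was at 94.9 against 56.8 CPM, and its share of thinned cells was 33.8% against 22.8%. It was found in 3 of 16 mesenchyme-like cells (18.8%, interval 4.05% to 45.6%). The paper reports activity of the P1 promoter of Runx1 in prostate stroma, so such cells need not lack Runx1. With so few cells and so wide an interval, they cannot serve as a background for either share. Runx2 was low in both groups, at 11.6 against 4.12 CPM.

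**Figure D3:**
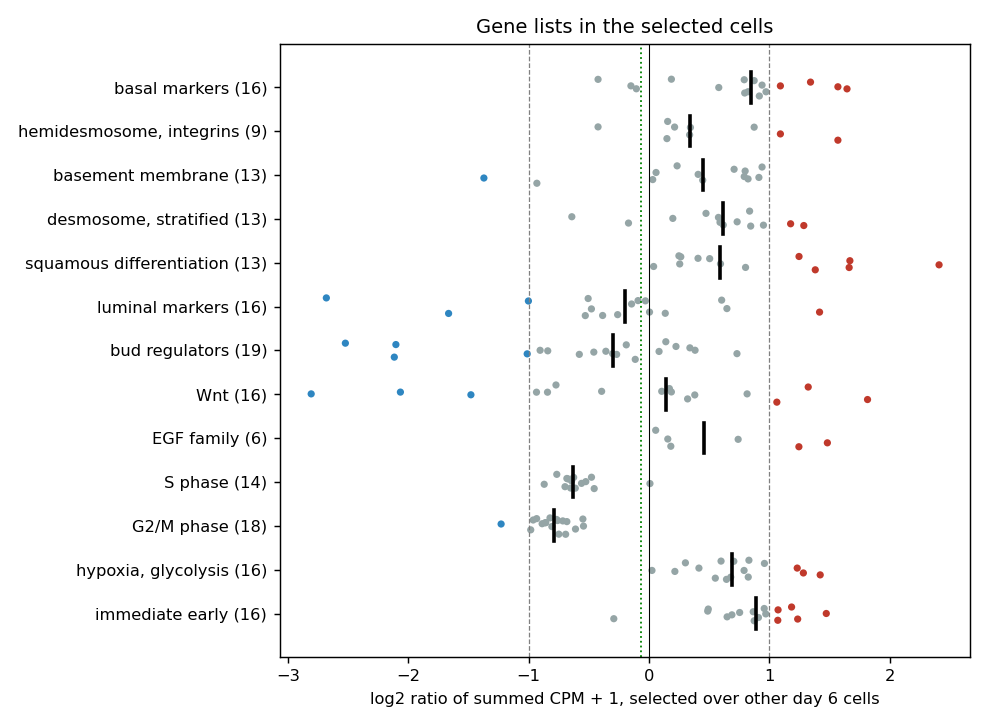
Log2 ratio of summed CPM plus 1 between the Krt5/Krt14-high and the other day 6 cells (x axis) for each tested gene of 13 lists (y axis, number of tested genes in brackets). Red and blue points are past 2-fold, black bars are list medians, the dotted green line is the median of all genes, and the medians run from -0.79 for G2/M genes to 0.89 for immediate early genes.

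Of 16 tested Wnt genes, 3 were 2-fold higher and 3 were 2-fold lower, with a median log2 ratio of 0.14. Against the cells with neither marker the Wnt median was -0.06, near the -0.08 of all genes there. The higher were the ligands Wnt4, at 391 against 156 CPM, and Wnt10a, at 39.1 against 10.4, and the secreted inhibitor Sfrp1, at 49.9 against 23.4, which was under 2-fold in 8 of 18 alternative settings. Wnt4 was as high or higher in the Krt4 and Psca cells. The lower were the inhibitor Wif1 and the transcription factors Tcf7, at 5.11 against 16.04 CPM, and Sp5, at 2.44 against 13.4. The Wnt target genes Axin2 and Lef1 and the receptor ligase Rnf43 had log2 ratios of -0.84, -0.77 and -0.94. Of 6 EGF family genes, Hbegf was at 266 against 94.7 CPM and Nrg1 at 28.0 against 11.2, while the receptor gene Egfr was level at 17.7 and 17.0. Hbegf, too, was as high or higher in the Krt4 and Psca cells. In the Notch list 1 of 7 genes was past 2-fold, with Hey1, a Notch target, at 6.44 against 24.6 CPM. Among BMP and TGF-beta genes 1 of 11 was past 2-fold, Bmp7 at 34.6 against 70.9 CPM, whose log2 ratio of -1.01 was under 2-fold in 10 of 18 alternative settings.

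Cell cycle genes lay below 0 almost throughout, where 3187 of all 7801 genes lay above 0. All 18 G2/M genes lay below 0, 1 of them past 2-fold (Ccna2, cyclin A2, at 17.4 against 42.2 CPM), with a median log2 ratio of -0.79. Of 14 tested S phase genes 13 lay below 0 and none was past 2-fold, with a median of -0.64. Top2a, a topoisomerase of dividing cells, was at 108 CPM (102 to 115) against 215 (209 to 220). Cells with 3 or more UMIs of Mki67, Top2a, Cdk1 and Ccnb1 together made up 12.3% of the Krt5/Krt14-high and 30.7% of the other cells, and this share depends on depth. Among the other cells it was 34.9% in the Vcan cells and 27.1% in the cells with neither marker. In the Krt4 and Psca cells it was 11.4%, so a low share was not particular to the Krt5/Krt14-high cells. After thinning, a Top2a UMI was found in 12.7% (10.3% to 15.3%) and 26.5% (24.4% to 28.6%). Cdkn1a, the cell cycle inhibitor p21, was at 168 against 85.9 CPM. Without the cells with 3 or more such UMIs, Ccna2 turned to a log2 ratio of 0.20.

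Markers of mesenchyme, immune, endothelial and erythroid cells were low. The sums of mesonephric and urothelial markers were higher, but rested mostly on a few genes. Over 12 mesenchyme markers the summed level was 45.7 CPM in the Krt5/Krt14-high cells, 62.6 in the other cells and 10738 in the mesenchyme-like cells, and Zeb1 and Myh11 had no UMI in the Krt5/Krt14-high cells. Col3a1 was the 1 mesenchyme marker past 2-fold, at 16.2 against 7.13 CPM, while Col1a1 was at 1.11 against 2.52. Col3a1 was found in 6.26% and 2.85% of the thinned cells, and 30 Krt5/Krt14-high cells held 2 or more UMIs of Col1a1 and Col3a1. Over 6 immune markers the summed levels were 4.00 and 11.9 CPM, with Ptprc, Cd52, Tyrobp and Lyz2 at 0 UMIs. Over 6 endothelial markers they were 22.6 and 23.2 CPM, almost all Egfl7, and over 6 erythroid markers 0.333 and 0.349 CPM. Over 7 mesonephric markers the summed levels were 269 and 335 CPM, with 42.8 in the mesenchyme-like cells. Of these markers 3 were tested, and Hoxb7 was at 11.4 against 30.3 CPM. In the Krt5/Krt14-high cells the mesonephric sum was almost all Wfdc2 and Gata3, which are also on the luminal and bud lists. Pax8, Lhx1, Sox17 and Emx2 were near 0 CPM there. Over 8 urothelium markers the summed levels were 226 and 338 CPM, with 99.9 in the mesenchyme-like cells. In the Krt5/Krt14-high cells this sum was mostly Foxq1 and Upk1b, with Upk1a, Upk2, Upk3b and Krt20 near 0 CPM.

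The Krt5/Krt14-high cells differed among themselves along the keratin level. They were divided at 50 and 100 UMIs of Krt5 and Krt14 per 10,000 into 290, 290 and 144 cells with median depths of 11537.5, 11021.5 and 10680.5 UMIs. Krt15 stood at 6544, 9126 and 13207 CPM from the lowest to the highest range, Col17a1 at 68.1, 111 and 139, and Cdh13 at 39.7, 66.1 and 93.3. Wnt4 stood at 278, 404 and 621 CPM, Hbegf at 188, 276 and 424, and BC100530 at 38.6, 195 and 383. These 6 genes were picked from those higher in the selected cells, and not all such genes had this order. Ndufa4l2 stood at 883, 1090 and 960 CPM and Igfbp2 at 233, 303 and 301. Krt8 ran the other way at 785, 526 and 396 CPM. Top2a stood at 127, 113 and 54.8 CPM, and the share of cells with 3 or more UMIs of the 4 mitotic genes was 15.2%, 12.4% and 6.25%. Trp63 had no such order, at 135, 160 and 133 CPM, and neither had Krtdap, at 22.6, 26.5 and 19.9 CPM.

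The same rule found fewer cells on earlier days. It took 58 of 824 Epcam-positive cells on day 0, or 7.04% (5.39% to 9.005%), 99 of 902 on day 1, or 10.98% (9.01% to 13.2%), 251 of 1042 on day 3, or 24.1% (21.5% to 26.8%), and 29.1% on day 6. The median of Krt5 and Krt14 over all Epcam-positive cells was 8.48, 10.3, 13.6 and 19.0 UMIs per 10,000 on these days. The median depth of the selected cells was 15480.5, 14931, 13433 and 11216.5 UMIs, and of the other cells 18773.5, 18003, 18298 and 14544. The share was higher on each later day, while depth was lower in the selected cells and was lowest on day 6 in both groups. The intervals cover counting error only, so whether they overlap does not measure a change between days. Each day was 1 pool, so day and pool cannot be told apart.

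Ratios by day are given for genes that were in part chosen for their day 6 ratio, so a wide gap on day 6 is built in for those. Krt15 had log2 ratios of 0.59, 0.79, 1.05 and 1.34 on days 0, 1, 3 and 6, with 8099, 7270, 7728 and 8802 CPM in the selected and 5361, 4203, 3729 and 3470 CPM in the other cells. For Lor the ratios were 0.56, 0.72, 1.23 and 1.67, and for Wnt4 0.25, -0.02, 0.89 and 1.32, again with lower levels in the other cells on the later days. Col17a1 was past 2-fold on every day, with ratios of 1.34, 1.39, 1.65 and 1.57, and its level in the selected cells was 42.0, 75.1, 77.4 and 98.5 CPM. Basal genes did not share 1 course, since Trp63 had ratios of 0.39, 0.59, 0.67 and 0.19, Itgb4 of 1.13, 0.95, 1.17 and 1.09, and Krt14, which the rule used, of 2.36, 2.23, 2.08 and 2.21. Etv4 had ratios of -0.21, 0.06, -1.98 and -2.10, and in the other cells it stood at 26.1, 78.6, 151 and 124 CPM. Ccnd1 was at 98.3, 120, 135 and 144 CPM in the selected cells and at 144, 149, 355 and 427 CPM in the other cells. Wif1 was at 20.6, 40.9, 47.1 and 12.9 CPM in the selected cells and at 20.3, 38.2, 174 and 96.2 CPM in the other cells.

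**Figure D4:**
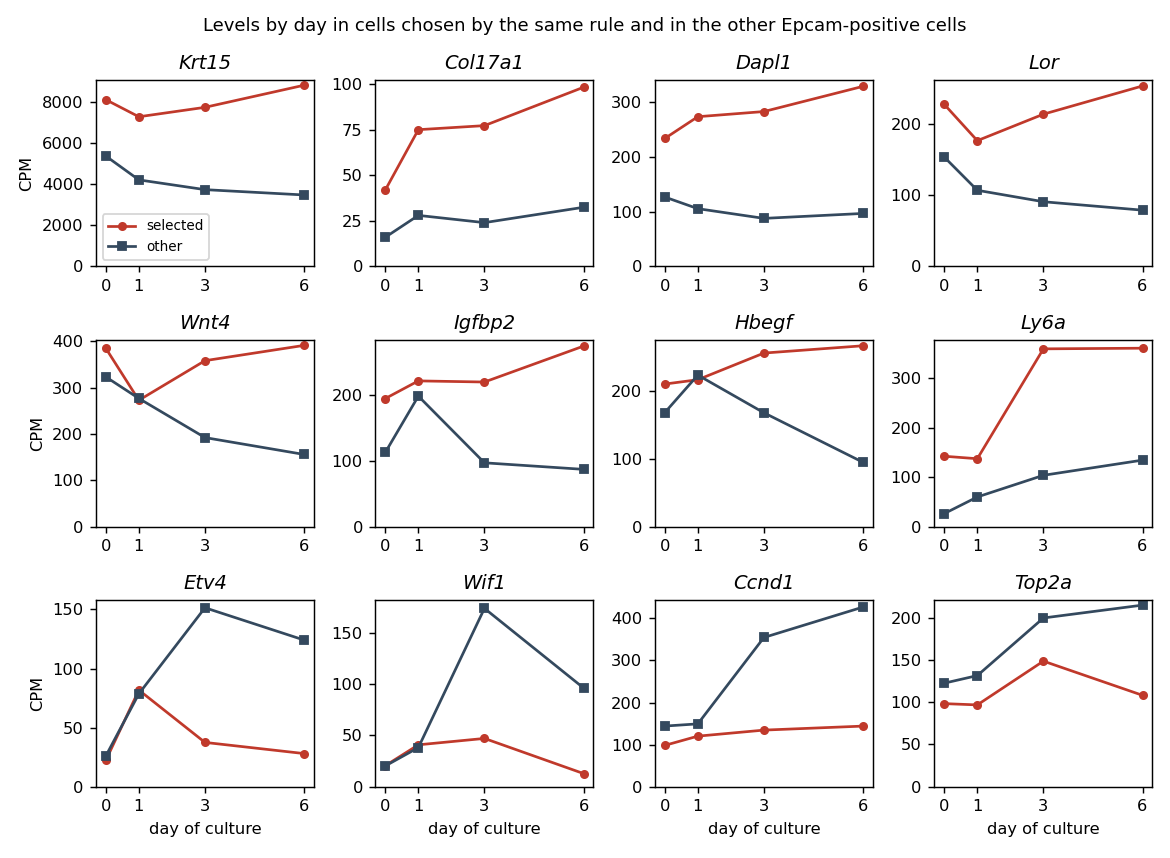
CPM of summed UMIs (y axis, from 0) on days 0, 1, 3 and 6 of culture (x axis) for 12 genes in the cells chosen by the rule (red) and in the other Epcam-positive cells (dark), 1 pool per day. Krt15, Lor and Wnt4 were lower in the other cells on day 6 than on day 0, while Etv4, Wif1 and Ccnd1 were higher there on days 3 and 6.

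Intact adult prostates were read with the same rule for comparison with the mature tissue. It took 256 of 800 cells in run 1, 219 of 1105 in run 2 and 647 of 1900 in run 3, or 32%, 19.8% and 34.1%. Adult cells had over 750 genes and under 10% mitochondrial UMIs. The other cells here are adult epithelium, so the contrast differs from that in explants. In runs 1, 2 and 3 the selected cells had median depths of 16977.5, 9828 and 9582 UMIs. The other cells had 16789.5, 19819.5 and 10725. In single runs 1238, 2144 and 1190 genes were 2-fold higher and 668, 549 and 429 lower. Adult ratios thus stand on a baseline unlike that of the explant. Of 6366 genes tested in the explant and in all 3 runs, 678 (10.7%) were at least 2-fold higher and 156 (2.45%) at least 2-fold lower in every run. The rule thus took a like share in runs 1 and 3 and a smaller one in run 2. Of 102 genes 2-fold higher in the explant, 47 were 2-fold higher in every run, among them Krt5 and Krt14, which the rule fixed in both tissues, and 4 were 2-fold lower in every run. Of 56 genes 2-fold lower in the explant, 23 were 2-fold lower in every run, among them Krt4 and Psca, which the rule limits in both tissues, and 16 were 2-fold higher in every run.

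Of the 16 basal markers, 14 were 2-fold higher in all 3 adult runs, against 4 in the explant, while over all genes these shares were 10.7% and 1.94%. Trp63 had adult log2 ratios of 2.31, 2.79 and 1.58, mean 2.23 ± 0.61 (SD, n = 3), and 0.19 in the explant. Itga6 had 2.01, 2.48 and 1.70 in the adult and -0.42 in the explant. Krt15, with 1.98, 3.04 and 1.90, and Col17a1, with 2.76, 3.29 and 2.01, were higher in both. Cdh13, Gsn, Lor and Dlk2 of the 12 highest explant genes were also 2-fold higher in every adult run. Cldn3, Crip1, Basp1 and Bex1 of the 12 lowest were 2-fold lower in every run. Igfbp2 was under the 10 CPM limit in adult run 3, at 5.02 against 1.93 CPM, so it is not counted. The difference between explant and adult ratios was not tested, as the explant has 1 library.

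**Figure D5:**
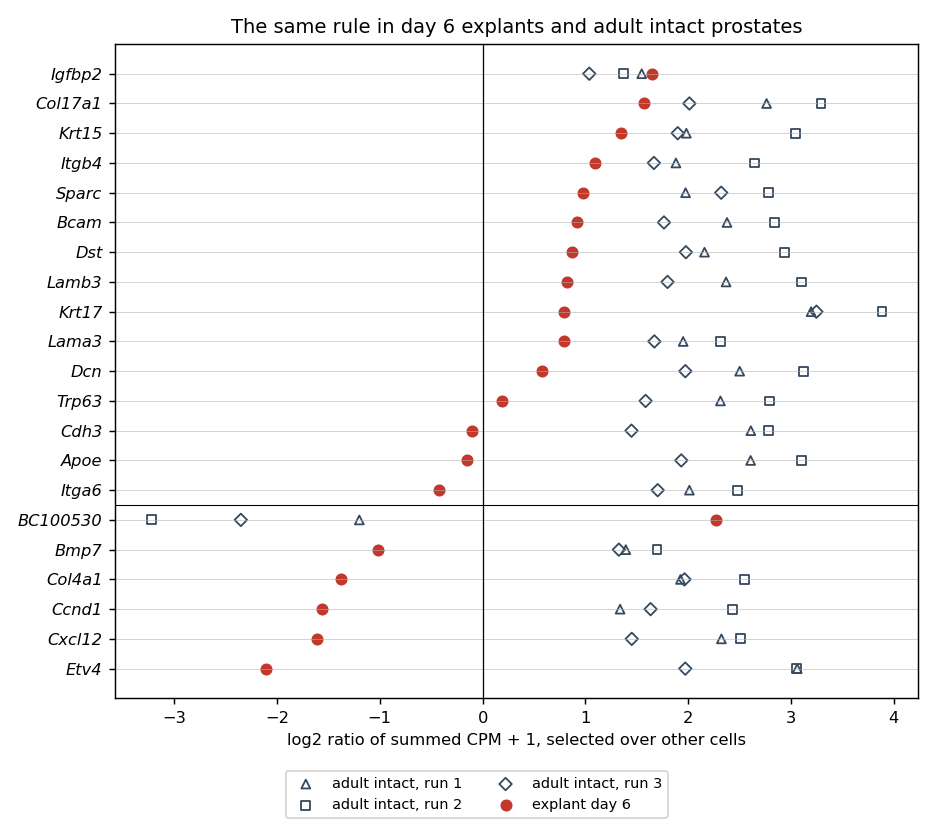
Log2 ratio of summed CPM plus 1 between cells chosen by the rule and the other cells (x axis) for 15 of the 16 basal markers and 6 genes with opposite ratios (y axis), with a red point for the day 6 explant and open symbols for adult runs 1 to 3. BC100530 was under the 10 CPM limit in the adult, as was Igfbp2 in run 3. All adult points of Trp63 and Itga6 lie past 1, while the explant points lie at 0.19 and -0.42.

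Male and female cells were both present among the Krt5/Krt14-high cells. Of the cells with UMIs of only 1 kind, 203 of the Krt5/Krt14-high cells had Xist and 391 had a Y-linked gene, or 34.2% with Xist, against 690 and 826 of the other cells, or 45.5%. Krt5/Krt14-high cells were 22.7% of the day 6 cells with Xist alone and 32.1% of those with a Y-linked gene alone.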

How the data were processed

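The deposited files hold counts of UMIs per gene and cell, which the authors made with Cell Ranger 3.1.0 on mm10 (GRCm38), and a table of MULTI-seq barcode counts per cell that the authors deposited. UMIs were summed over the cells of a group and divided by the group's total to give CPM. Ratios are log2(CPM + 1), for genes with at least 10 CPM in 1 group and at least 50 UMIs in both together, and 2-fold was the threshold. With 1 explant library and 1 pool per day there are no replicates and no test was made. Poisson intervals on sums and Clopper-Pearson intervals on shares (95%) cover counting error only, and a share of 0 allows 3 counts. The cell rule and the gene lists were chosen with earlier results of these data known, and none is independent support.

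Named genes were those of the rule, those of the lists, and the 12 highest and 12 lowest ratios among genes of at least 50 CPM in the higher group outside the rule. Some of these genes are not reported here. No doublet caller was run, and the 5% of cells with most UMIs were left out as an alternative. Mesenchyme-like cells had no Epcam UMI and at least 5 UMIs of Col1a1 and Col3a1. The explant library shared 5, 5 and 6 cell barcodes with adult runs 1, 2 and 3. The barcode of intact RFP+ dorsolateral lobes failed in adult runs 1 and 2, so that pool was not used there. Coordinates of 320 of 320 named genes came from GENCODE on GRCm38, and promoter sequences from RefSeq GRCm38.p6. The calculation was tested on simulated counts. Python 3.11.15 was used with numpy 2.4.6, scipy 1.17.1, pandas 2.3.3 and matplotlib 3.10.9.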

Additional observations from a re-analysis of the deposited data

Results flagged for a closer look

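For 6 named genes the day 6 explant ratio had 1 sign and all 3 adult runs had the other, with every value at least 2-fold in size. The difference itself was not tested, since the explant is 1 library. BC100530 had a log2 ratio of 2.27 in the explant and -1.20, -3.22 and -2.35 in adult runs 1, 2 and 3, where its level was 0, 0 and 0.591 CPM in the Krt5/Krt14-high cells and 1.29, 8.30 and 7.11 CPM in the others. These adult levels are under the 10 CPM that a tested gene needed, and the ratios depend on the pseudocount, so no direction is read from them.

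The other 5 were lower in the explant and higher in the adult. Etv4 had -2.10 in the explant and 3.06, 3.05 and 1.97 in the adult (mean 2.69 ± 0.626, SD, n = 3). Cxcl12 had -1.61 against 2.32, 2.51 and 1.45 (mean 2.09 ± 0.564), and Ccnd1 had -1.56 against 1.34, 2.43 and 1.63 (mean 1.80 ± 0.566). These 3 genes were above 2-fold in both tissues, in opposite directions. Col4a1 had -1.37 against 1.92, 2.55 and 1.96 (mean 2.15 ± 0.350), and Bmp7 had -1.01 against 1.39, 1.70 and 1.33 (mean 1.47 ± 0.198). The explant ratio of Bmp7 was under 2-fold in 10 of 18 alternative settings. Against only the cells with neither Vcan nor Krt4 and Psca, Col4a1 and Bmp7 had explant ratios of -0.64 and -0.85, while Etv4, Cxcl12 and Ccnd1 had -1.78, -1.76 and -1.81.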

How the results depend on the processing

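The share of Krt5/Krt14-high cells followed the thresholds. It was 34.98% at 15 UMIs per 10,000, 17.5% (434 cells) at 50, and 33.5% with the Vcan, Krt4 and Psca limits set per 10,000 UMIs. It was 34.2% without the cells with 3 or more mitotic UMIs. It was 22.7% among cells with Xist alone (203 cells, 297 genes 2-fold higher and 292 lower) and 32.1% among cells with a Y-linked gene alone (391 cells). With a pseudocount of 5 CPM 87 genes were lower, and with no filter 258 were higher and 322 lower. In alternatives added after seeing the data it was 24.5% among cells of 10,000 or more UMIs and 20.5% (166 cells) without cells with a UMI of Krt1, Krt10, Lor or Krtdap. Of 59 named genes past 2-fold, 33 were past it in all 18 settings that gave their ratios, and 16 were under it against the cells with neither marker. Ccna2 turned from -1.23 to 0.20 without the mitotic cells. The median of all genes was -0.06 with the main scaling, -0.06 without the 50 most abundant genes and -0.08 as a mean of CPM per cell. Leaving out 1 adult run moved no adult mean by more than its SD, which follows from the construction of a mean of 3. No paired analysis was possible because the explant and adult groups share fewer than 2 replicate numbers and no test was made. With 1 pool per day, nothing here measures the spread between explants.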
